A study of Homo sapiens with 6 samples.

Results

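The 44 genes described here encode enzymes, and partner subunits of enzymes, that chemically modify transfer RNA (tRNA) and ribosomal RNA (rRNA), together with the METTL3 and METTL14 methyltransferase that acts mainly on messenger RNA. They were chosen by name: a probe set was taken where the platform annotation gave exactly 1 of the 44 symbols. This found 86 probe sets for 41 genes, of 54613 probe sets that are not controls and 13765 genes tested in all. METTL16 had 4 probe sets, all of which also named another gene, and it was not analysed here, nor were TRMT12 and NSUN6. All 41 matched genes passed the filter on dim probe sets.

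The cells were RL, an established human B lymphoid line with the t(14;18) translocation of follicular lymphoma, which all samples share. MALC are multicellular aggregates of these cells, collected after 10 days of culture, and the cells they were compared with grew in suspension and were collected in exponential growth. Neither culture was treated, and each was represented by 3 samples, numbered 1 to 3, with 1 Affymetrix U133+ 2.0 array per sample. No label says whether the 3 samples of a group were grown separately, and p-values therefore reflect the spread among these samples alone, which may be technical. RL is 1 cell line, and differences in culture form, culture time and growth phase between the groups cannot be told apart.

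Newly made tRNA and rRNA carry many modified nucleosides. Modifications in and beside the anticodon tune decoding of messenger RNA, those in the body of a tRNA help it to fold and keep it from decay, and those of rRNA accompany assembly of the ribosome. The enzymes fall into methyltransferases, which take the methyl group from S-adenosylmethionine, pseudouridine synthases, which rotate a uridine in place, dihydrouridine synthases, which reduce it, an acetyltransferase, and the enzymes that build the larger groups found at wobble positions. Proliferating cells make large amounts of both RNAs.

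The deposited signals had medians of 80.7 to 81.7 in all arrays. With 3 arrays a group, precision is limited by their number. Across probe sets, arrays correlated at 0.977 to 0.989 between groups. Within each group sample 1 stood apart, with correlations of 0.995 to 0.996 to the other samples, while those numbered 2 and 3 reached 0.998 with each other. All 5 matched B cell markers of 6 listed were above the filter on dim signals (53.4), with sums of 27829 to 31909 (MALC) and 28004 to 33433 (suspension). Of 5 T cell markers 3 were above the filter, and the whole list gave 311 to 319.6 for MALC, against 328 to 345 for suspension. Of 4 monocyte markers found, CSF1R was above the filter, with 61.2, 76.2 and 66.5 in MALC, against 67.2, 62.1 and 61.9 in suspension. All 4 summed to 167 to 185 for MALC, against 175 to 186 for suspension. Of 4 endothelial markers PECAM1 and VWF were above the filter, and all 4 summed to 254 to 264 for MALC, against 258 to 309 for suspension. Of 5 fibroblast markers COL1A1, COL1A2 and DCN were above the filter, and MALC gave a sum of 459.8 to 508, suspension one of 520.0 to 973. COL1A2 had 46.0 to 54.2 in the MALC arrays, against 54.1, 347 and 127 in suspension. As signs of RNA quality, ACTB controls gave 3′ over 5′ ratios of 1.22 to 1.33 (MALC) and 1.31 to 1.54 (suspension). For GAPDH they were 1.01 to 1.02 (MALC) and 1.04 to 1.06 (suspension). The part of these values in the results was not tested.

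In MALC, 23 of the 41 genes fell and 1 rose, whereas 17 did not pass the test. The threshold was an adjusted p of 0.05 from limma, a linear model fitted over all 13765 genes, on the log2(signal + 16) scale, which understates the changes of dim genes. Over all genes tested, 23.7% were called lower, 19% higher and 42.7% in either direction. This share is that of a dimmer set, as 38 of the 41 genes had a mean signal above the median of all genes tested. With the filter on dim probe sets at the 60th percentile, 5498 of 10004 genes were called, 3074 of them lower. All 41 genes were still tested there, with 26 called and 25 lower. The median log2 change of the 41 genes was −0.38 (suspension 1.30-fold higher), against −0.06 over all genes tested. Changes below 0 were found in 35 of the 41 genes, and in 8466 of all 13765 genes tested. The groups did not overlap in 28 of the 41 genes, against 56.9% of all genes tested. In 26 of these every MALC signal lay under every suspension signal, which was so for 33.8% of all genes tested. The falls were moderate in size: 1 gene, TRMT6, fell more than 2-fold, and 15 fell at least 1.5-fold. Over all 13765 genes tested, 119 were lower by at least 2-fold, called or not, and 873 were called lower with a fall of at least 1.5-fold. Without MALC 2 the count over all genes of lower calls was 2104, against 3266 with all arrays, and that of the 41 genes was 20. With the nearly alike samples 2 and 3 of each group averaged to 1, 17 of the 41 genes were called lower, against 1112 of all genes. An array measures RNA of all cells together, so fewer cells with a transcript and less of it per cell cannot be told apart.

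**Figure D1:**
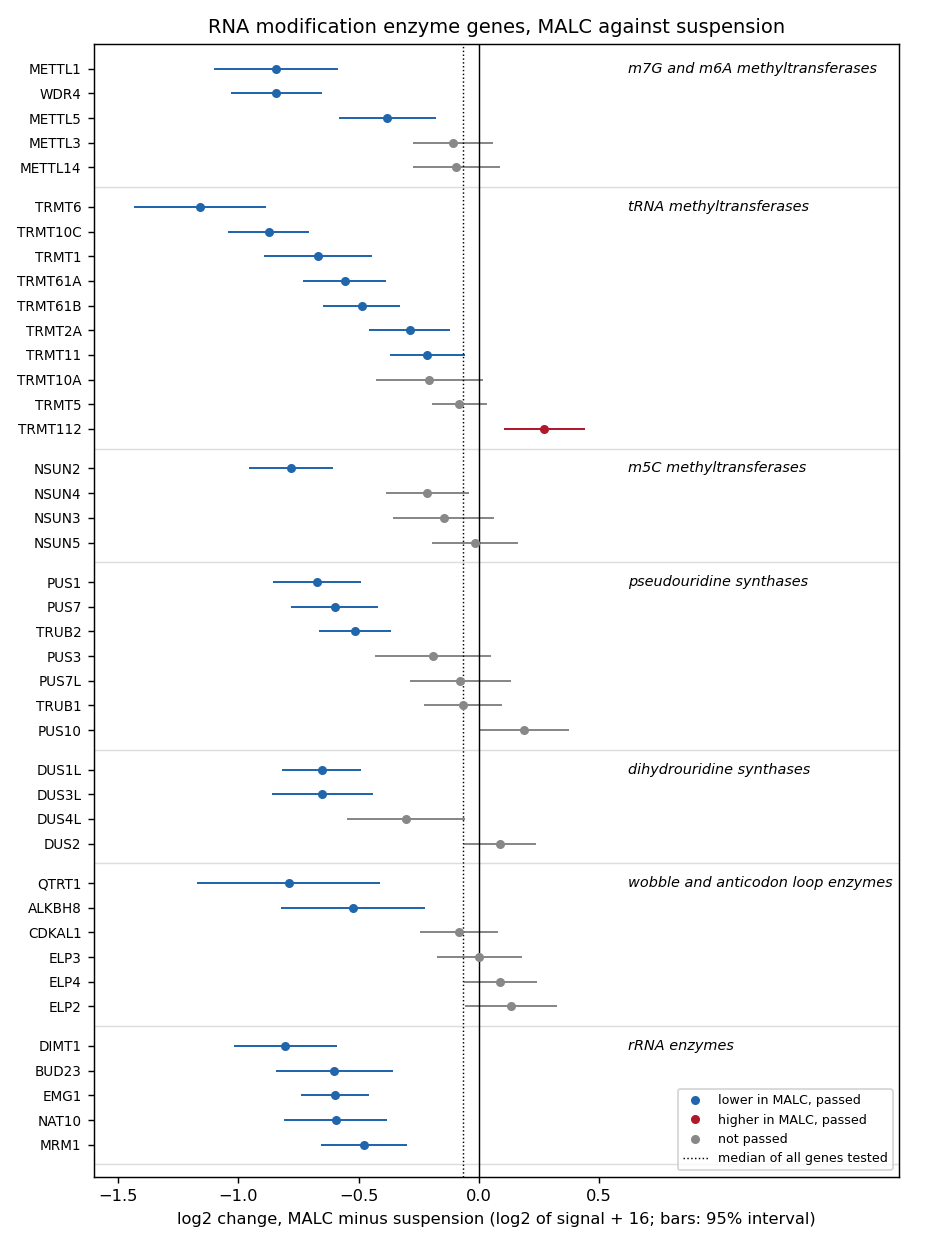
Log2 change of each of the 41 genes, MALC minus suspension (3 arrays each), grouped by role, with 95% intervals from limma; colour marks whether the gene passed. All 5 rRNA enzyme genes lie left of 0, and TRMT112 is the gene that passed on the right; the dotted line is the median of all genes tested, −0.06.

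The steepest fall was in TRMT6, the non-catalytic subunit that with TRMT61A forms the enzyme for N1-methyladenosine in the tRNA T-loop. TRMT6 had signals of 761, 620.4 and 546 in MALC, against 1378, 1487 and 1471 in suspension. Every MALC array was lower than every suspension array, with a suspension level 2.24-fold that of MALC (log2 change −1.16, SE 0.118, adjusted p = 0.000463). The catalytic partner TRMT61A had 366, 354 and 322 in MALC and 495, 539.9 and 519.9 in suspension. TRMT61A also fell without overlap, by 0.56 on the log2 scale (adjusted p = 0.00117). Both probe sets of TRMT6 and all 3 of TRMT61A passed as lower.

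METTL1 and WDR4 form the enzyme for 7-methylguanosine in the tRNA variable loop, METTL1 as catalyst and WDR4 as its scaffold. METTL1 had 299, 246 and 215 in MALC, against 462, 457 and 472 in suspension. For WDR4 the signals were 2669, 2399 and 2224 in MALC and 4646, 4163 and 4276 in suspension. Both genes fell by 0.84 on the log2 scale (adjusted p = 0.00107 for METTL1 and 0.000405 for WDR4), with no overlap of the groups in either.

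TRMT10C, a mitochondrial methyltransferase that is also a subunit of mitochondrial RNase P, had 1199, 1150.2 and 1057 in MALC, against 1997, 2127 and 2154 in suspension. Its fall of 0.87 on the log2 scale had an adjusted p of 0.000283. DIMT1, which dimethylates adenosines near the end of the small-subunit rRNA, had 1876, 1603 and 1477 in MALC, against 2785, 2934 and 2939 in suspension. All 4 DIMT1 probe sets passed as lower, and the one standing for the gene fell by 0.81 (adjusted p = 0.000695). QTRT1, the catalytic subunit that puts queuine into the anticodon of some tRNAs, had 239.8, 171 and 225 in MALC, against 299, 437 and 404 in suspension. Its groups did not overlap, but the spread was wide, suspension 1 lying near the MALC arrays (log2 change −0.79, SE 0.163, adjusted p = 0.0067). With samples 2 and 3 averaged the QTRT1 call was lost (adjusted p = 0.0572).

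**Figure D2:**
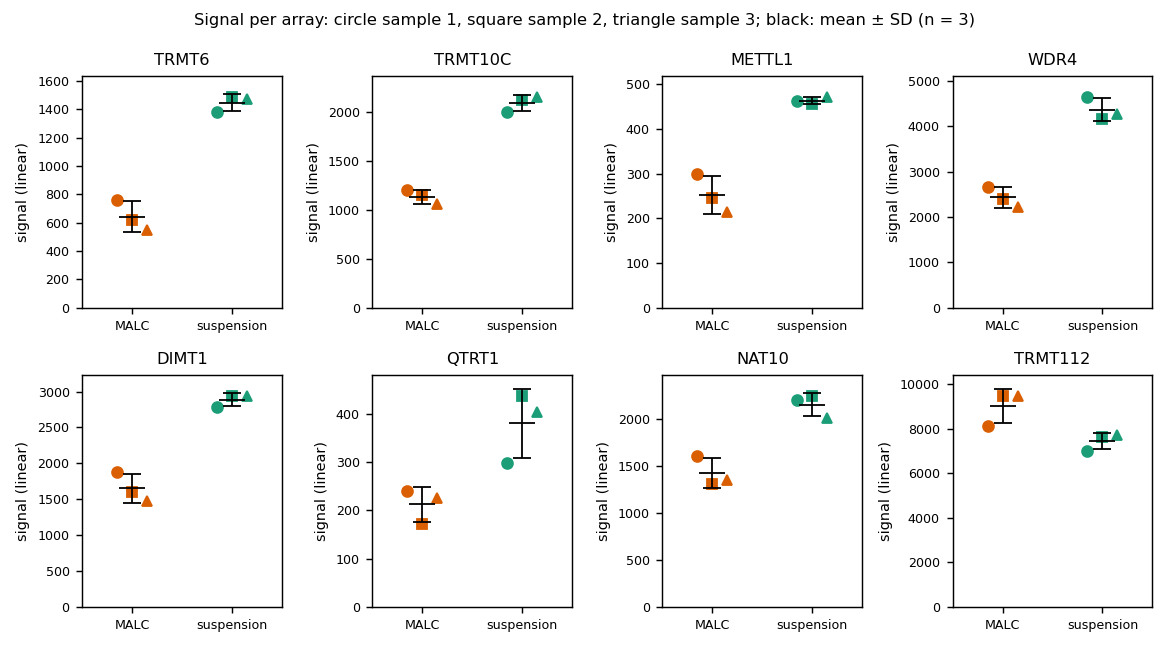
Linear signal per array for the 6 genes with the largest falls, NAT10 and TRMT112, MALC left and suspension right, with mean ± SD of 3 arrays in black. In the first 7 genes all MALC points lie below all suspension points; in TRMT112 they lie above.

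Promoter stretches of 3 genes that fell and of the gene that rose are shown because they differ in the number of E-boxes they hold. RefSeq-derived promoters (GRCh38.p14, 250 bases before to 50 after the start) were at hand for 35 of the 41 genes, not for METTL1, TRMT2A, NSUN2, PUS1, PUS7L and ELP3. The letters CACGTG, an E-box that reads alike on both strands and is bound by MYC and MAX among other factors, stood in 6 of 19 promoters of genes that fell (31.6%) and in 0 of the other 16. They stood in 9.9% of 10941 promoters of genes tested, in 12.4% of 2725 promoters of all genes lower in MALC, and in 7.43% of all 27305 promoters. The 6 genes were TRMT6, TRMT61A, QTRT1, PUS7, NAT10 and MRM1. CCGGAAG, a core of ETS factor sites, was searched on both strands. It stood in 10 of the 19 and 5 of the other 16, against 18.0% for genes tested and 23.8% for all genes lower in MALC. The motif of NRF1, searched in the same way, stood in none of the 35, against 2.21%. These are matches of letters within a fixed window and show no binding. Each line runs from 120 bases before to 30 bases after the annotated start, 5′ to 3′ on the gene's strand, with CACGTG in capitals.
TRMT6 (chr20:5950504-5950653, minus strand): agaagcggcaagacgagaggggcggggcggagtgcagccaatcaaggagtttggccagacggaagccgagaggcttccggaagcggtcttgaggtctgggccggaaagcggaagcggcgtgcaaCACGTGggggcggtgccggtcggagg
QTRT1 (chr19:10701319-10701468, plus strand): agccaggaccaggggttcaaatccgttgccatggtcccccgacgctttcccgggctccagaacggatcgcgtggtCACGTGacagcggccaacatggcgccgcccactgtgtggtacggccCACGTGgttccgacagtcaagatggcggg
NAT10 (chr11:34105509-34105658, plus strand): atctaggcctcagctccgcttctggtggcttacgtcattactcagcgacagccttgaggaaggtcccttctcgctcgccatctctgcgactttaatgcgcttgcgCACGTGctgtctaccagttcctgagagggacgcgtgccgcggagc
TRMT112 (chr11:64317961-64318110, minus strand): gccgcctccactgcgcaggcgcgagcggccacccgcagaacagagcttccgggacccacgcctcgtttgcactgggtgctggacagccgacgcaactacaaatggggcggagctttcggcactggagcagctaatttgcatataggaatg
TRMT6 and NAT10 hold 1 CACGTG each and QTRT1 holds 2, while the stretch of TRMT112, the gene that rose, holds 0. TRMT6, NAT10 and QTRT1 were picked from the 6 of 19 promoters of genes that fell in which CACGTG stood. Promoters of TRMT10C, WDR4 and DIMT1, also among the largest falls, hold 0. Whether CACGTG goes with the direction of change was not tested.

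All 5 genes of the rRNA group fell, with a median log2 change of −0.60, while 23.7% of all genes tested were called lower. The count depends on how the role groups were drawn. NSUN5, which methylates the large-subunit rRNA but was grouped with the other NSUN genes, did not pass (log2 change −0.01, limma adjusted p = 0.89). NAT10, the acetyltransferase that makes N4-acetylcytidine in rRNA and tRNA, had 1607, 1314 and 1358 in MALC, against 2203, 2252 and 2016 in suspension (adjusted p = 0.00201). EMG1, which methylates a pseudouridine of the small-subunit rRNA, averaged 5221 ± 352 in MALC and 7897 ± 280.0 in suspension (SD, n = 3 each, adjusted p = 0.00047 by limma). BUD23 makes 7-methylguanosine in the small-subunit rRNA and had 2823, 2251 and 2141 in MALC, against 3789, 3531 and 3570.0 in suspension. Its fall of 0.60 (adjusted p = 0.00319) had an adjusted p of 0.0502 with samples 2 and 3 averaged. MRM1, a ribose methyltransferase of mitochondrial rRNA, fell by 0.48, the smallest change of the 5. METTL5, grouped here with the methyltransferases, makes N6-methyladenosine in the small-subunit rRNA and had 6911, 5853 and 5585 in MALC, against 8501, 7528 and 7805 in suspension. The log2 change of METTL5 was −0.38 (adjusted p = 0.0101, and 0.0835 with samples 2 and 3 averaged).

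Of the 10 tRNA methyltransferase genes tested, 7 fell and 1 rose, with a median log2 change of −0.39. Of all genes tested, 23.7% were called lower and 19% higher. Besides TRMT6, TRMT61A and TRMT10C, the genes lower in MALC were TRMT1, TRMT61B, TRMT2A and TRMT11. TRMT1, which makes dimethylguanosine, fell by 0.67, and TRMT61B, the mitochondrial relative of TRMT61A, by 0.49. TRMT2A, which makes the methyluridine of the T-loop, averaged 361 ± 11.6 in MALC and 445 ± 28.5 in suspension (n = 3 each, limma adjusted p = 0.0148). The TRMT2A call was lost without MALC 2 (adjusted p = 0.0545), without MALC 3 (0.0549) and with samples 2 and 3 averaged (0.111). TRMT10A, a nuclear and cytosolic relative of TRMT10C, did not pass (log2 change −0.21, 95% interval −0.43 to 0.02).

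TRMT5, the methyltransferase for the guanosine next to the anticodon, gave different results by probe set. The brighter probe set, 221952_x_at, averaged 12468 ± 441 in MALC and 13195 ± 689 in suspension (n = 3 each) and did not pass (log2 change −0.08, limma adjusted p = 0.215). The other, 227653_at, had 612, 536 and 539 in MALC, against 921, 825 and 866 in suspension. It passed as lower, with a log2 change of −0.62 and an adjusted p of 0.00118 in the fit over probe sets. An ID ending in _x_at marks a probe set that may share probes with other transcripts; whether it did so here was not tested.

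TRMT112 is the small partner that stabilises TRMT11, ALKBH8, METTL5 and BUD23, and it was the single gene of the 41 that rose. It had 8132, 9478 and 9473 in MALC, against 7015, 7629 and 7712 in suspension, with no overlap. The level in MALC was 1.21-fold that of suspension (log2 change 0.27, SE 0.0718, adjusted p = 0.0181). The adjusted p was 0.0762 without MALC 2, 0.0685 without MALC 3, 0.0511 without suspension 1 and 0.128 with samples 2 and 3 averaged, so the rise did not pass in any of these 4 alternatives. These 4, the partners listed among the 41 genes, all passed as lower, while 23.7% of all genes tested were called lower. Partners outside the 41 genes were not gathered. TRMT11, which makes 2-methylguanosine in tRNA, had 3269, 2922 and 2851 in MALC, against 3404, 3481 and 3589 in suspension (log2 change −0.21, adjusted p = 0.0367). TRMT11 missed the threshold without MALC 2 (adjusted p = 0.131), MALC 3 (0.117), suspension 2 (0.0995) or suspension 3 (0.123), after quantile normalization (0.0778) and with samples 2 and 3 averaged (0.282). ALKBH8, which completes a methoxycarbonylmethyl group at wobble uridines, had 409.8, 320.3 and 282 in MALC, against 518, 462 and 482 in suspension. Its log2 change was −0.52 (adjusted p = 0.014), and the call was lost without MALC 2 (0.0551) and with samples 2 and 3 averaged (0.0987).

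METTL3 and METTL14 form the writer of N6-methyladenosine in messenger RNA, and neither passed. METTL3 had 2363, 2224 and 2091 in MALC, against 2548, 2329.9 and 2314 in suspension. METTL14 had 674, 602 and 575 in MALC, against 652, 658 and 663 in suspension. The groups overlapped in both genes, with log2 changes of −0.11 (95% interval −0.27 to 0.06) and −0.09 (−0.27 to 0.09). In each gene a dimmer probe set was called higher in the fit over probe sets. For METTL3 this was 242111_at, at 213, 215 and 214 in MALC, against 165, 191 and 182 in suspension (log2 change 0.24, adjusted p = 0.0287). For METTL14 it was 241689_at, at 92.7, 95.3 and 107 in MALC, against 72.7, 64.1 and 70.4 in suspension (log2 change 0.43, adjusted p = 0.00292).

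Elongator, the acetyltransferase complex that starts the modification of wobble uridines, was represented by its catalytic subunit ELP3, the scaffold ELP2 and ELP4 of the accessory ring. None passed with the probe set standing for the gene. ELP3 had 994, 1016 and 1004 in MALC, against 915, 1051 and 1048 in suspension (log2 change 0.003, 95% interval −0.17 to 0.18). ELP4 had 1183, 1226 and 1270.4 in MALC, against 1193, 1131 and 1130.0 in suspension (log2 change 0.09, −0.06 to 0.24). ELP2 had 871, 786 and 913 in MALC, against 776, 822 and 735 in suspension (log2 change 0.14, −0.06 to 0.33). The intervals of all 3 leave out a fall of the size seen in TRMT61A. A pair of other ELP2 probe sets was called higher, 235623_at by 0.38 (adjusted p = 0.0331) and 230178_s_at by 0.45 (0.0372), and a further one had a log2 change of 0.01. Of the remaining wobble and anticodon loop genes, CDKAL1, which adds a methylthio group beside the anticodon, did not pass (log2 change −0.08). QTRT1 and ALKBH8 were thus the 2 of 6 that fell (33.3%), while 23.7% of all genes tested were called lower and 42.7% in either direction.

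Among 7 pseudouridine synthases, 3 fell and 0 rose (42.9% called). This is near the 42.7% of all genes tested called in either direction, of which 23.7% were lower and 19% higher. PUS1, which acts on many tRNAs in nucleus and mitochondria, had 459.6, 449 and 409 in MALC, against 659.8, 741 and 730.0 in suspension (limma adjusted p = 0.000749). PUS7 fell by 0.60 (adjusted p = 0.00103) and TRUB2, a mitochondrial synthase, by 0.52 (0.000898). PUS3 and TRUB1, which act in the anticodon stem-loop and the T-loop, and PUS7L, a relative of PUS7, did not pass, with log2 changes of −0.19 for PUS3, −0.07 for TRUB1 and −0.08 for PUS7L. PUS10, another T-loop synthase, had 489.6, 505 and 447 in MALC, against 453, 405 and 402 in suspension. With overlapping groups it did not pass (log2 change 0.19, adjusted p = 0.0956), whereas its probe set 232945_at had 115, 134 and 127 in MALC, against 72.8, 82.6 and 87.4 in suspension, and was called higher (log2 change 0.54, adjusted p = 0.00177).

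Within the dihydrouridine synthases, DUS1L and DUS3L fell by the same amount, 0.65 on the log2 scale. DUS1L averaged 1278 ± 90.1 in MALC and 2016 ± 21.8 in suspension (n = 3 each, limma adjusted p = 0.000575). DUS3L averaged 301 ± 33.1 in MALC and 479 ± 22.9 in suspension (n = 3 each, limma adjusted p = 0.00135). DUS4L did not pass (log2 change −0.30, adjusted p = 0.0512), whereas a replicate block on the sample number brought it past the threshold (0.00873). DUS2, a dihydrouridine synthase for cytosolic tRNA, had log2 changes of 0.09 and 0.10 in its 2 probe sets, and neither passed.

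Of the 4 NSUN genes tested, which make 5-methylcytidine, NSUN2 alone passed (25%), near the 23.7% of all genes tested called lower. NSUN2, the main enzyme of this kind for cytosolic tRNA, had 1537, 1305 and 1399.7 in MALC, against 2380.2, 2431 and 2501 in suspension. All MALC arrays lay under the suspension arrays, with a fall of 0.78 on the log2 scale (adjusted p = 0.000405). The mitochondrial enzymes NSUN4 and NSUN3 had log2 changes of −0.21 and −0.15. NSUN4 stood at the threshold (adjusted p = 0.0501) and passed with the sample number as a replicate block (0.0327). NSUN5, which methylates the large-subunit rRNA, had 2895, 3286 and 3179 in MALC, against 3419.7, 3029.8 and 3011 in suspension. Its groups overlapped and its change of −0.01 turned sign in several alternatives; near-identical copies of NSUN5 in the genome may share its 2 probe sets, both of which end in _x_at.

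Grouped by place, 4 of 6 genes whose products act in mitochondria only were lower (TRMT10C, TRUB2, TRMT61B and MRM1), and NSUN3 and NSUN4 did not pass. Their median log2 change was −0.48, against −0.30 for the other 35 genes, of which 19 fell. Over all genes tested, 23.7% were called lower. The difference between the mitochondrial genes and the other 35 was not tested.

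**Figure D3:**
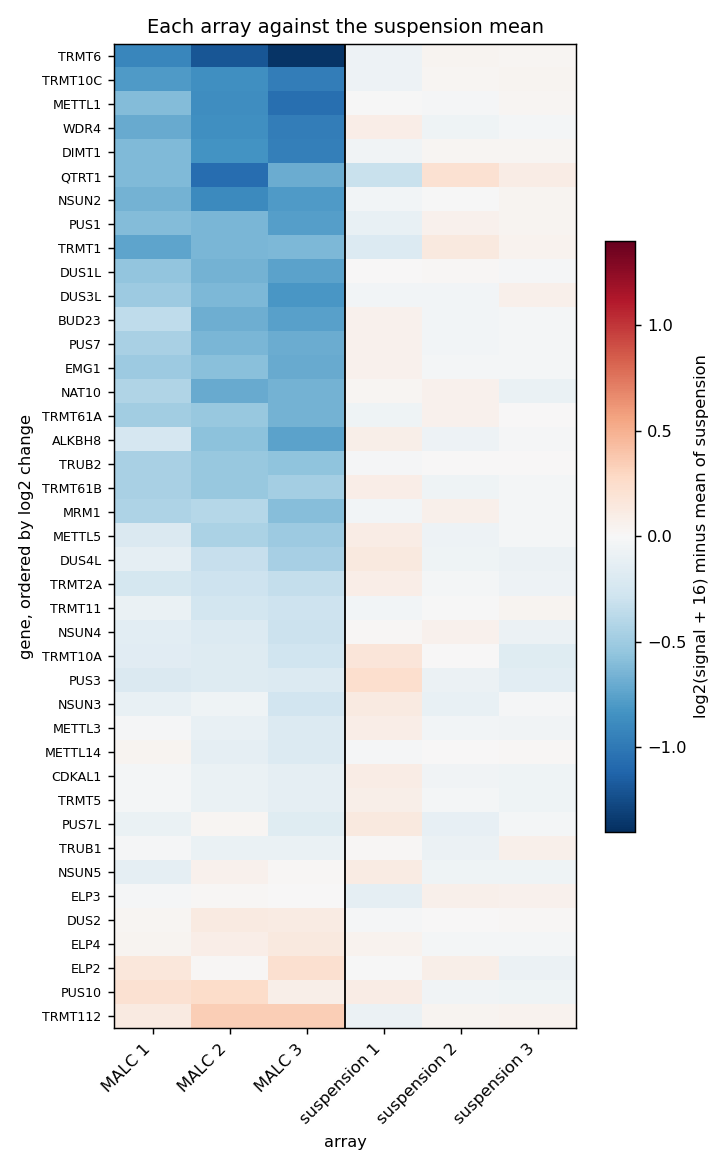
Each array's log2(signal + 16) minus the mean of the 3 suspension arrays, for the 41 genes ordered by log2 change, MALC arrays left and suspension arrays right. In 32 of the 41 genes all 3 MALC arrays are below 0, and the column of MALC 1 is paler than those of MALC 2 and MALC 3. The matching count over all genes tested was not taken.

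The 3 MALC arrays were not equally far from suspension. Over the 23 genes that fell, the median distance to the suspension mean was −0.51 in MALC 1, −0.64 in MALC 2 and −0.70 in MALC 3. MALC 1 lay nearest to suspension in 21 of the 23 genes (91.3%), and in 76.5% of all 3266 genes lower in MALC. QTRT1, with MALC 2 lowest and MALC 1 nearest, and TRMT1, with MALC 1 lowest, show that single genes had their own order. Without MALC 1 the median log2 change of the 41 genes was −0.47, and 25 were lower. Without both arrays numbered 1, an alternative chosen after seeing the data, 27 were lower and 4 higher.

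**Figure D4:**
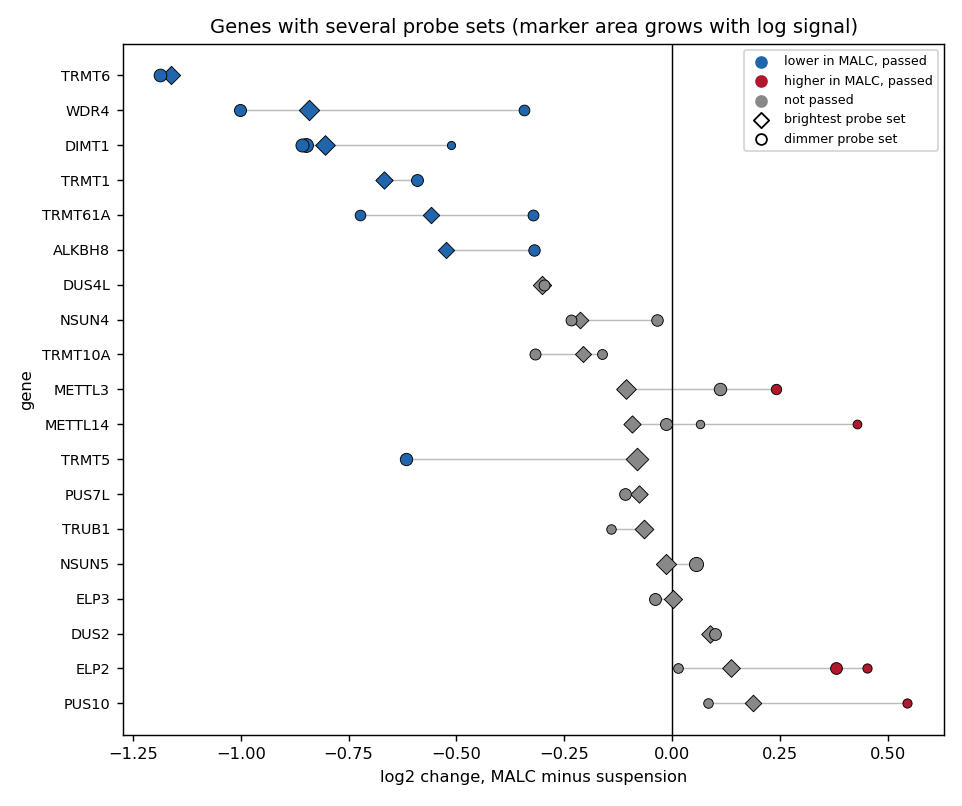
Log2 change, MALC minus suspension, of every kept probe set for the 19 genes with more than 1, genes running down in order of their change; diamonds stand for the gene in the tests, circles are dimmer probe sets. Both or all markers of TRMT6, WDR4, DIMT1, TRMT1, TRMT61A and ALKBH8 are blue, while METTL3, METTL14, ELP2 and PUS10 each hold a red circle and TRMT5 a blue one.

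Several probe sets of a gene allowed a check within the arrays. Of the 86 probe sets 72 passed the filter on dim values, and 19 genes had more than 1 of them. In 12 of the 19 all log2 changes were negative, in 3 all were positive, and in METTL3, METTL14, ELP3 and NSUN5 the signs were mixed. The 6 genes that fell and had several probe sets, ALKBH8, DIMT1, TRMT1, TRMT6, TRMT61A and WDR4, were lower in each of them. Of the 31 probe sets that did not stand for their gene, 11 were called lower and 5 higher, these 5 lying in METTL3, METTL14, ELP2 and PUS10. In the same fit over probe sets, 3177 of the 13765 probe sets standing for a gene were called lower and 2582 higher. No count over all dimmer probe sets was taken. Probe sets of a gene share the same RNA and are not independent samples.

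Other genes of RNA modification, 74 outside the 44, were also examined. Of 68 tested, 40 fell and 8 rose, while 23.7% of all genes tested were called lower and 19% higher. The median log2 change of the 68 was −0.30. The largest falls were in YRDC, which acts in making threonylcarbamoyladenosine, in NOP2, an rRNA cytosine methyltransferase, and in GAR1, a protein of the snoRNA-guided pseudouridine synthase. YRDC had 1386, 1185 and 1118 in MALC, against 2397, 3227 and 3249 in suspension (log2 change −1.25, adjusted p = 0.000577). NOP2 and GAR1 fell by 1.08 and 0.95 (adjusted p = 0.00022 and 0.000574). The largest rises were in OSGEPL1, the mitochondrial threonylcarbamoyl transferase, TRMT1L, a relative of TRMT1, and ALKBH5, an eraser of N6-methyladenosine. OSGEPL1 had 419.7, 456 and 439.6 in MALC, against 321, 257 and 251 in suspension (log2 change 0.64, adjusted p = 0.00204). TRMT1L and ALKBH5 rose by 0.59 and 0.52 (adjusted p = 0.00519 and 0.00483). Without MALC 2 the falls of this list numbered 24, and with samples 2 and 3 averaged 15 fell and 2 rose. Of all 13765 genes tested, 2104 were lower without MALC 2, and 1112 fell and 1235 rose with samples 2 and 3 averaged.

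**Figure D5:**
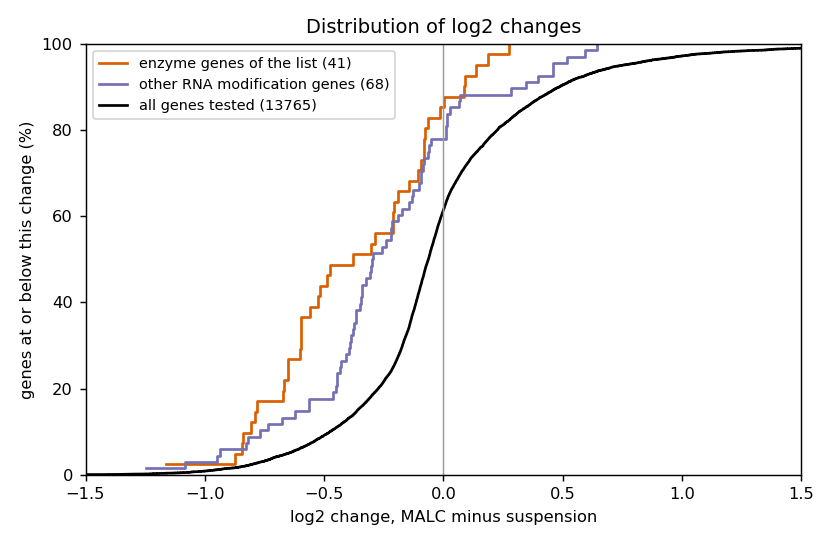
Cumulative share of genes (%) by log2 change, MALC minus suspension, for the 41 enzyme genes, the 68 other RNA modification genes and all 13765 genes tested. At a change of 0 the curves of both lists stand higher than that of all genes, whose median is −0.06 against −0.38 and −0.30.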

How the data were processed

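Per the labels' protocols, 200 ng of total RNA per sample went into one-cycle amplification with biotin labelling. The authors deposited an intensity on a linear scale for each of 54675 probe sets on each array. The submitters' processing notes name MAS5. How background was removed and arrays were scaled is not given in the sources used here. Scaling arrays to a common level would hide a shift shared by all transcripts. No detection calls were used.

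Groups and sample numbers came from the sample titles. Control probe sets (62) were left out. The platform annotation gave a single symbol to 41091 of the rest, several to 1801 and none to 11721; symbols were updated through Entrez identifiers (RefSeq, GRCh38.p14; 41037 matched). Intensities were set to log2(value + 16), without further normalization. Probe sets at or above the 40th percentile of mean log2 value (a signal of 53.4; 32768 probe sets) were kept, and each gene was represented by its brightest one. MALC and suspension were set against each other in limma 3.58.1 under R 4.3.3 (two-sided, no covariates, eBayes with an intensity trend) and Benjamini-Hochberg adjustment over all 13765 genes. Intervals are 95% intervals of limma. The test was checked on simulated data. The genes, lists, role groups and tests were chosen with earlier results of these data known, so no list was tested as a set.

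Values per array were given for the 6 largest falls and the rises past the threshold, the subunits of METTL1/WDR4, METTL3/METTL14, TRMT6/TRMT61A and Elongator, TRMT112 and its partners, and genes whose probe sets differ in sign; the values of NSUN2, NAT10, PUS1, PUS10 and TRMT5 were added after they were seen. Sample numbers 1 to 3 occur in both groups, with no label on what they mark. Same-numbered samples deviated together from their group means (r across genes of 0.28, 0.18 and 0.19). All were above 0.1, so a fit with the numbers as a replicate block was run as an alternative. MALC 2 with suspension 3 and MALC 3 with suspension 2 gave 0.15 and 0.20, so these values do not tell which of samples 2 and 3 form pairs. Alternatives covered the offset, scaling, filter, choice of probe set, variance model, block and left-out arrays.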

Additional observations from a re-analysis of the deposited data

How the results depend on the processing

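Of the 23 genes that fell, 17 passed in every one of the 20 alternatives that tested them, and 6 (METTL5, TRMT2A, TRMT11, ALKBH8, QTRT1 and BUD23) missed the threshold in at least 1. Of the 17 that did not pass, 9 passed in at least 1 alternative, NSUN5 among them with its sign turned, and 8 in none. With the sample number as a replicate block, 25 genes of the 41 were lower and 1 higher, as DUS4L and NSUN4 now passed; it changed no other call of the 41. Without _s_at and _x_at probe sets, 24 genes were left to test, of which 14 changed and 13 fell, since 17 genes have no other probe set above the filter. With the mean of probe sets 3 of the 41 rose, and 5 of the other RNA modification genes rose. Array weights gave 8880 changed genes, 5230 of them lower, and 4 rises among the 41. The weights were 0.248 for MALC 1 and 0.290 for suspension 1, against 0.777 to 3.81 for the other arrays. Without both arrays numbered 1 the rises were also 4. Both alternatives thus rest mainly on samples 2 and 3, and the cause of the added rises was not tested. With samples 2 and 3 averaged, which leaves 2 replicates a group, 2347 genes changed (1235 higher, 1112 lower), 0 of the 41 rose in limma (1 at an unadjusted p under 0.05), and 17 other RNA modification genes changed (2 higher, 15 lower). Leaving out 1 array at a time gave 4007 to 6499 changed genes, 1903 to 2873 higher and 2104 to 3626 lower. For the 41 genes the counts were 20 to 26 changed, 0 to 1 higher in limma (1 without MALC 2 and 2 without MALC 3 at an unadjusted p under 0.05) and 20 to 25 lower, and for the other RNA modification genes 31 to 48 changed, 7 higher in each and 24 to 41 lower. Some genes that did not pass turned sign. NSUN5 ranged from −0.053 to 0.044 when 1 array was left out. It was at 0.053 after quantile normalization, 0.020 with probe sets averaged, 0.093 with array weights and 0.097 without both arrays numbered 1, where its limma adjusted p was 0.0465. METTL3 was at 0.081 with probe sets averaged and at 0.11 once those ending in _s_at or _x_at were dropped. METTL14 was at 0.096 with probe sets averaged. PUS7L was at 0.047 with array weights. ELP3 ranged from −0.062 to 0.037 when 1 array was left out, and was at −0.019 with probe sets averaged, −0.038 with array weights and −0.054 without both arrays numbered 1. The causes were not tested. Signals are not calibrated between probe sets, so levels of different genes were not compared, apart from the count of the 41 above the median signal.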
